A study of Mus musculus with 9 samples.

Results

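Proteasome subunits and activators are described here across mouse bone marrow-derived macrophages that were left untreated or were treated with IL-4 or IL-27. The genes were taken by name, as every symbol of the count table that starts with Psm, a letter from a to g and a number, without Psmb8 and Psmb9. The pattern gave 48 of 16200 genes, and all 48 passed the filter on low counts, which left 12587 genes for testing. They comprise 15 core genes (14 of the standard rings and Psmb10), 17 genes of the regulatory cap, 7 assembly chaperones, 5 genes named as activators and 4 others.

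All cells were wild type and were grown from bone marrow for 6 days with L929 supernatant, which supplies the macrophage growth factor. There were 3 untreated libraries, 3 with IL-4 at 20 ng/ml for 12 h and 3 with IL-27 at 100 ng/ml for 6 h. Dose and duration therefore changed along with the cytokine, and between IL-27 and IL-4 these cannot be told apart. Each library carries the same treatment text with both cytokines, and it leaves unsaid if IL-4 was also given in the IL-27 group. The labels do not say whether replicates came from separate animals, so the p-values measure only how far these libraries spread, possibly for technical reasons.

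The proteasome is the large protease that degrades proteins tagged with ubiquitin. Its core is a barrel of stacked rings, in which the outer alpha subunits (Psma genes) gate the entrance and the inner beta subunits (Psmb genes) hold the proteolytic sites. The regulatory cap binds the tagged protein through its lid and base (Psmd genes), removes the ubiquitin and unfolds the chain with a ring of ATPases (Psmc genes). Alternative caps, encoded by Psme genes, open the barrel without ATP. In macrophages and other antigen-presenting cells, interferons are known to exchange the standard catalytic subunits for the inducible Psmb8, Psmb9 and Psmb10 and to raise the Psme1 and Psme2 activator.

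Promoter windows from 250 bases before to 50 bases after the gene start were available for 40 of the 48 genes (RefSeq, GRCm38.p6), and 4 are shown because they belong to the genes on which the results below turn. Psmd14 and Psmd8 are subunits of the same lid that moved under different cytokines, and Psme1 and Psme2 encode the partners of a single activator ring. Capitals mark letters of the 4 motifs searched on both strands, which were the CCAAT box (CCAAT), the core of the interferon-stimulated response element (GAAA, any 2 bases, GAAA), the core of the antioxidant response element (TGACNNNGC) and the gamma-activated site (TTCNNNGAA). The windows are chr2:61711444-61711743 on the plus strand for Psmd14, chr7:29180624-29180923 on the minus strand for Psmd8, chr14:55578244-55578543 on the plus strand for Psme1 and chr14:55591052-55591351 on the minus strand for Psme2.
Psmd14: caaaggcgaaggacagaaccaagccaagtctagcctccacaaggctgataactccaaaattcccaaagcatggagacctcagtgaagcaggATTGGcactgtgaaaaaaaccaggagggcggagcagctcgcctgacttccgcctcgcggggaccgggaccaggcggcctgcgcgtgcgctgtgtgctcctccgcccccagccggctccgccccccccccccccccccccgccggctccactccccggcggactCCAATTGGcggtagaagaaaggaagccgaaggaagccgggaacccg
Psmd8: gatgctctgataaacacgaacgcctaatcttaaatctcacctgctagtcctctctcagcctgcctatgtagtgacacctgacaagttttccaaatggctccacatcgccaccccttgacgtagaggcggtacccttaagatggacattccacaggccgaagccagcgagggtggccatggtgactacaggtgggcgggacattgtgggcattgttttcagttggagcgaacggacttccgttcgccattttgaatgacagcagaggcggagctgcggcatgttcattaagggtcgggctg
Psme1: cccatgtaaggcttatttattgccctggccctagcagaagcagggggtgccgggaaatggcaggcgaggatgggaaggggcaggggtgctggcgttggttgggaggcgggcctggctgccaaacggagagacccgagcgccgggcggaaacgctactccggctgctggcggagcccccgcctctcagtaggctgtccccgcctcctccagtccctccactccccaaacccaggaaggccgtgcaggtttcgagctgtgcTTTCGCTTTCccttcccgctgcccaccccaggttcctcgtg
Psme2: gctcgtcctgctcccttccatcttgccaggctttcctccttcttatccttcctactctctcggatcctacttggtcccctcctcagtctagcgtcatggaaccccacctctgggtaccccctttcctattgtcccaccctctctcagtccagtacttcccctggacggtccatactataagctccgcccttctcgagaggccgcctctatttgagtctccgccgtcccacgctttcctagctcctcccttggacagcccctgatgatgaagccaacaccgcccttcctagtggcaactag

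The Psmd14 window held 3 CCAAT letter matches, of which 2 overlap at the gene start, and the Psme1 window held 1 match to the interferon-stimulated response element core on the other strand, also close to the start. The Psmd8 window and the Psme2 window held none of the 4 motifs. The Psme2 window is the more upstream of 2 in the table. Over the 40 genes, the interferon-stimulated core was present in 5 promoters (12.5%), those of Psmb3, Psmd4, Psmd9, Psme1 and Psmg4, beside 3.99% of the promoters of all 27025 genes in the table. The antioxidant core was present in 15.0% of the proteasome promoters and 14.0% of all promoters. A CCAAT box was present in 35.0% against 41.1% of all promoters, and among the core rings in 6 of 11 windows (54.5%). The gamma-activated site was present in 5.0% against 9.55%. The proteasome windows had a median GC content of 57.6%, against 52.8% over the table. These matches are letters in a window and not measured binding.

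Libraries held between 34577188 and 37951827 counts. The macrophage markers were all present, with a summed level of 24012 to 29164 CPM (counts scaled to a common library size) in untreated, 15444 to 17280 in IL-4 and 23925 to 26013 in IL-27 libraries. Most of that sum was the lysozyme gene Lyz2, at 17220 to 21300 CPM in untreated, 9314 to 10100 in IL-4 and 18844 to 20895 in IL-27 libraries. Cd14 and Fcgr1 were likewise lowest with IL-4. Cd14 stood at 334 to 380 CPM untreated, 57.7 to 61.9 with IL-4 and 197 to 220 with IL-27. Fcgr1 stood at 82.5 to 91.7, 29.8 to 36.8 and 64.7 to 73.0 CPM in the same order. Mertk also fell with IL-4, to 120.9 to 122.1 CPM. The other markers, Mertk included, were not lowest with IL-4. Csf1r stood at 2512 to 2998 CPM untreated and 1335 to 1422 with IL-27, Adgre1 at 834 to 923 and 537 to 545, and Mertk at 199 to 207 and 88.7 to 91.4, whereas Itgam stood at 1387 to 1432 CPM untreated and 1540 to 1587 with IL-4. The fibroblast and stromal list, mostly Col1a1 and Col1a2, summed to 669 to 803 CPM in untreated, 532 to 677 in IL-4 and 1030 to 1284 in IL-27 libraries, while the lists for T cells, B cells, neutrophils, dendritic cells, mast cells and erythroid cells stayed at or below 9.39 CPM. The part of these marker shifts in the results below was not tested. In bulk RNA, fewer cells of a type and less RNA per cell cannot be told apart. The CPM of Arg1, Retnla and Gbp2 are TMM-normalised, unlike those of the cell type markers above. The treatments showed in Arg1, the arginase of IL-4-activated macrophages, at a mean of 5.26 CPM untreated, 472 CPM with IL-4 and 0.109 CPM with IL-27. Retnla, the other gene listed as a check for IL-4, stood at 1.13, 102 and 0.009 CPM in the same order. Gbp2, an interferon-inducible GTPase, stood at 9.44 CPM untreated, 7.73 CPM with IL-4 and 539.6 CPM with IL-27. Untreated replicate 2 and IL-4 replicate 1 stood apart from their groups. Their chi-square per gene against the other replicates was 91.7 to 116, compared with 5.43 to 8.86 for all other pairs within groups, and their deviations from the group means were correlated across 9553 genes (r = 0.900). In those libraries the beta ring lay a median of 0.27 and 0.29 (log2) above the group mean and the ATPase ring 0.20 and 0.20. The lid median lay 0.02 above and 0.01 below (log2 deviations of 0.02 and -0.01), but lid genes were shifted in both directions. Psmd13 deviated by 0.35 and 0.31 and Psmd8 by 0.23 and 0.27 (log2). Psmd6 deviated by -0.31 and -0.25 and Psmd11 by -0.15 and -0.18. Counts of called genes are therefore also given with this pair left out. That fit keeps untreated replicates 1 and 3 and IL-4 replicates 2 and 3. Because the pair was picked by its spread in these same data, the p-values of that fit can be too small. Genes called higher with IL-4 were 24.0% of all genes there and 12.9% with every library.

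With IL-4, transcripts of 5 of the 14 ring genes, 5 of the 17 cap genes, Psmb10, 1 of the 7 assembly chaperones and 2 of the 5 activators rose, each by less than a doubling. Of all genes tested, 12.9% were higher with IL-4. The proteasome genes took 0.338%, 0.341% and 0.337% of all counts in the untreated libraries and 0.430%, 0.424% and 0.414% in the IL-4 libraries, so the groups did not overlap. The IL-27 libraries held 0.350%, 0.354% and 0.352%, which lay above all untreated and below all IL-4 values. The 14 ring genes together took 0.112%, 0.114% and 0.112% in untreated, 0.150%, 0.148% and 0.141% in IL-4 and 0.111%, 0.111% and 0.109% in IL-27 libraries. The rings were thus highest with IL-4 and lowest, by a narrow gap, with IL-27.

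**Figure D1:**
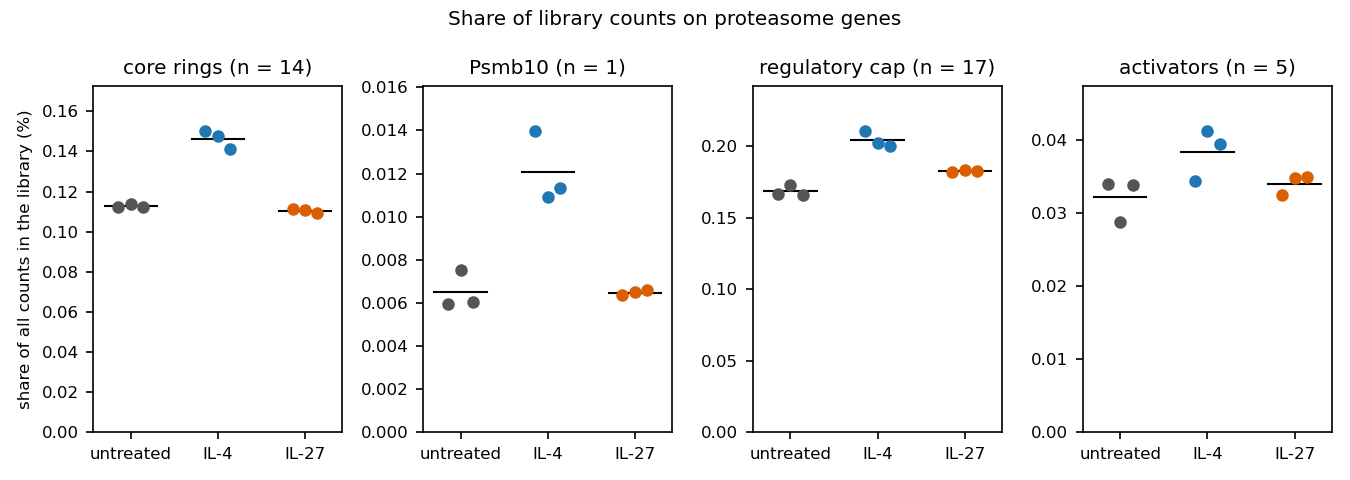
Share of all counts in a library (%, vertical axes from 0) on the core rings, Psmb10, the regulatory cap and the activators, with a point per library and a line at the group mean. All IL-4 libraries lie above all untreated libraries in the 4 panels, and of the 4 panels only the regulatory cap has every IL-27 library above every untreated one, at 0.182% to 0.183% against 0.166% to 0.173%.

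Of the 48 genes, 14 were higher with IL-4 than untreated (29.2%, edgeR quasi-likelihood adjusted p under 0.05, where 12.9% of all genes tested were higher), and 0 were lower (12.0% of all genes). At an unadjusted p under 0.05, 23 were higher and 0 lower, and DESeq2 called 21 higher and 0 lower (15.5% and 15.0% of all genes). For counts at an unadjusted p, here and below, the share of all genes is not given. The fitted log2 fold change was above 0 in 46 of 48 and below 0 in 2, against 49.2% and 50.8% of all genes, and its median was 0.29, beside -0.01 over all genes. In 21 genes every IL-4 library lay above every untreated library (17.8% of all genes did so) and in 0 below (18.2%). In 19 of the 21, every IL-4 library also lay above every IL-27 library. The 21 were picked by their high IL-4 libraries, which this count shares, and no like share of all genes was computed. When untreated replicate 2 and IL-4 replicate 1 were left out, 35 of the 48 were higher (72.9%, beside 24.0% of all genes), including all 14 called with every library. Leaving out single libraries gave between 7 and 20 calls, with 7 without untreated replicate 3, 8 without untreated replicate 1 and 9 without IL-27 replicate 3. The 7 genes Psma2, Psma3, Psmb7, Psmb10, Psmd14, Psme3 and Psmg1 passed in all 9 of these fits.

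**Figure D2:**
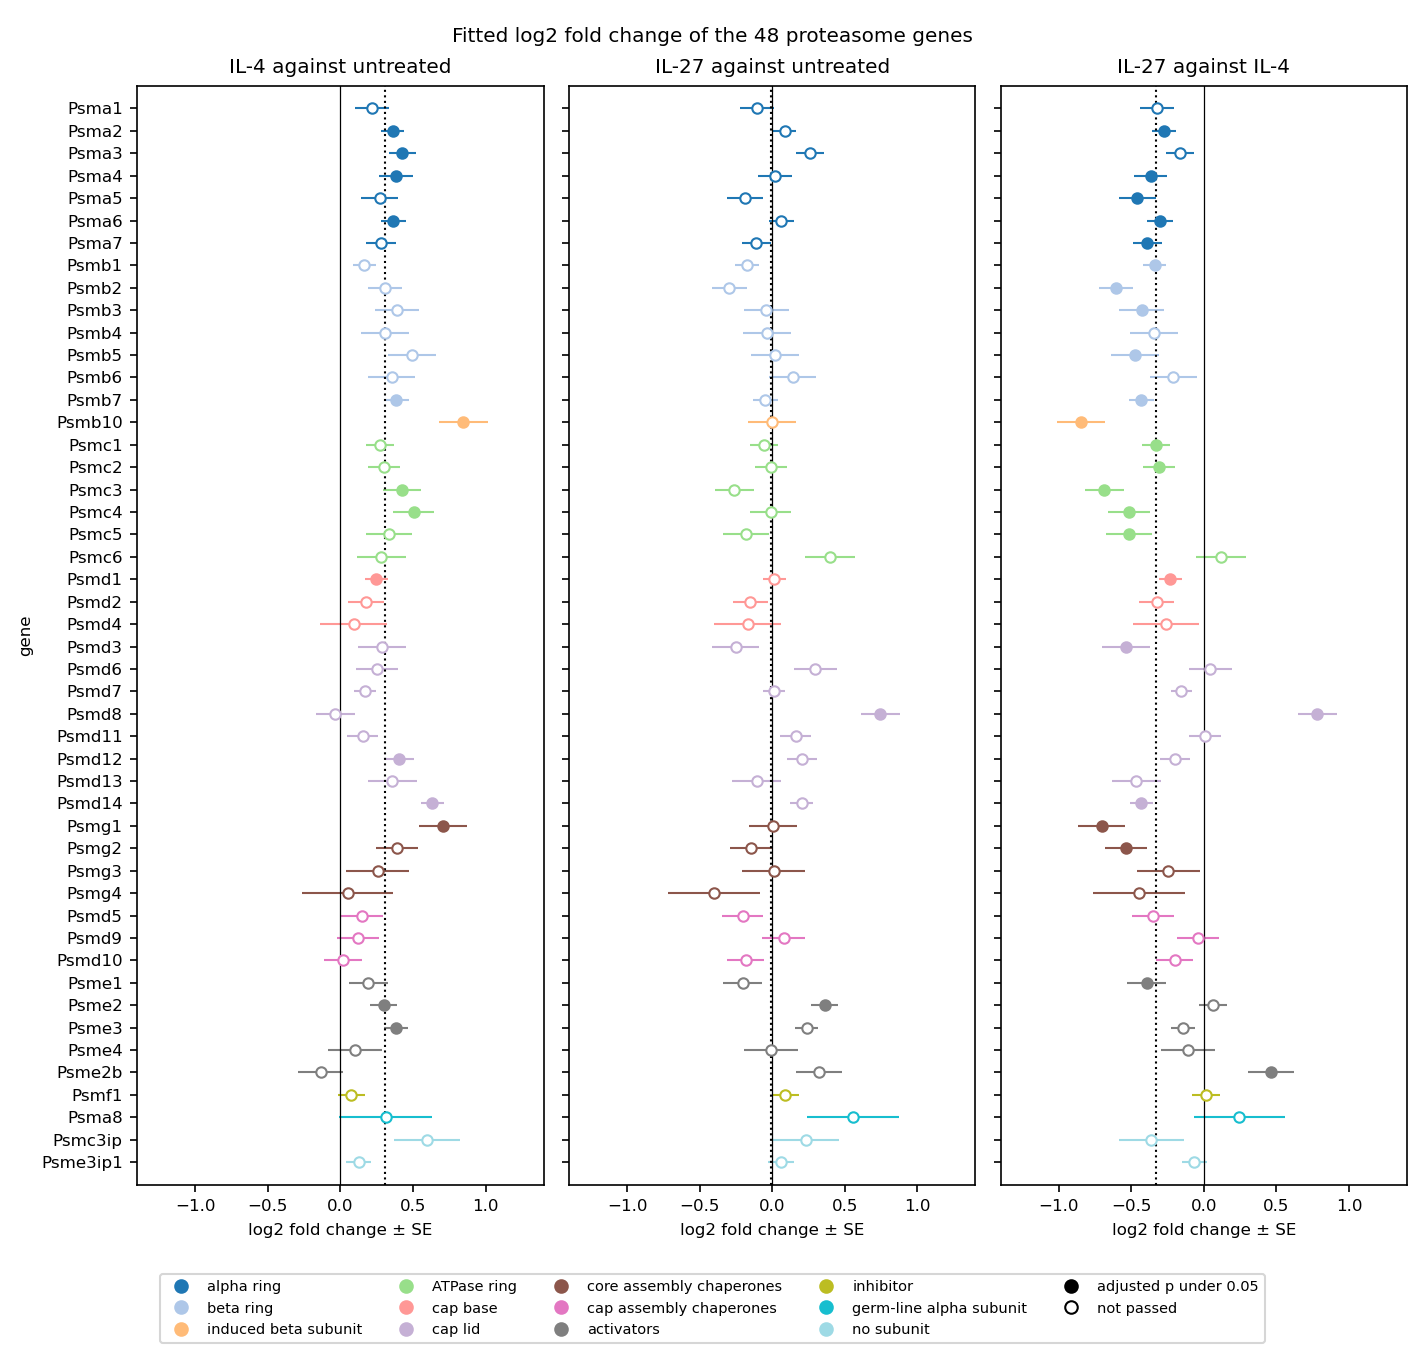
Fitted log2 fold change ± SE of the 48 genes (rows, coloured by structural group) in the 3 comparisons, with filled points for edgeR adjusted p under 0.05 and a dotted line at the median of the rings and cap. In the IL-4 panel 46 of 48 points lie right of 0, in the IL-27 panel 24 lie on each side with Psmd8 far right at 0.75, and against IL-4 the IL-27 points lie left of 0 in 40 of 48 genes.

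Among the 7 outer alpha subunits, 4 rose with IL-4, beside 12.9% of all genes tested, and the median log2 fold change was 0.36. Psma3 stood at 53.8, 52.1 and 56.4 CPM in untreated and 68.8, 80.4 and 68.9 CPM in IL-4 libraries (TMM-normalised CPM here and below). These values did not overlap, and Psma3 was 1.34-fold higher (log2 0.43 ± 0.09 SE, edgeR adjusted p = 0.00853). Psma2 rose 1.28-fold (log2 0.36 ± 0.08, edgeR adjusted p = 0.0101), from 74.9, 80.4 and 74.3 CPM to 99.2, 103.8 and 91.5 CPM. Psma6 and Psma4 were also called. Psma6 (log2 0.36, edgeR adjusted p = 0.0132) lost its call without untreated replicate 1 or 3, where the adjusted p reached 0.0545. Psma4 (log2 0.39, edgeR adjusted p = 0.0366) lost it on leaving out any library other than IL-4 replicate 1, up to an adjusted p of 0.126, and shares 114 of its 2370 exon bases with AY074887 on the opposite strand. Psma1, Psma5 and Psma7 did not pass, with log2 values of 0.22, 0.27 and 0.28.

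In the inner beta ring, Psmb7, which carries the trypsin-like site, was the only gene of 7 called, beside 12.9% of all genes tested. The median log2 fold change of the ring, 0.35, was still close to that of the alpha ring. Psmb7 measured 66.1, 74.6 and 67.5 CPM untreated and 95.2, 90.9 and 85.7 CPM with IL-4. The groups were separate and the rise was 1.30-fold (log2 0.38 ± 0.09, edgeR adjusted p = 0.00922). Its exons share 405 of 3421 bases with Nek6 on the opposite strand, and it is not known whether the counting used strand. Psmb5, with the chymotrypsin-like site, measured 92.9, 122.7 and 82.9 CPM untreated and 171.6, 116.9 and 131.8 CPM with IL-4 (log2 0.49 ± 0.17, edgeR adjusted p = 0.055). Untreated replicate 2 lay above IL-4 replicate 2, so the groups overlapped. Psmb6, with the caspase-like site, gave 119.6, 164.9 and 120.8 CPM untreated and 213, 153 and 150.6 CPM with IL-4, again with overlap (log2 0.35 ± 0.16, edgeR adjusted p = 0.143). Without untreated replicate 2 and IL-4 replicate 1, Psmb5 and Psmb6 were both higher (log2 0.50 and 0.34, edgeR adjusted p = 4.17e-07 and 5.69e-06). All 14 ring genes were then higher, beside 24.0% of all genes.

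Psmb10 encodes the inducible catalytic subunit that takes the place of Psmb7, and it showed the largest fitted change of the 48 genes with IL-4. It measured 57.2, 82.2 and 58.7 CPM untreated, 146, 103.5 and 106 CPM with IL-4 and 64.5, 66.7 and 66.8 CPM with IL-27. Every IL-4 library lay above all other libraries. The rise with IL-4 was 1.80-fold (log2 0.85 ± 0.17, edgeR adjusted p = 0.00481), and the adjusted p stayed at or below 0.0236 on leaving out each library. With IL-27 the difference from untreated was 0.00 ± 0.17 on the log2 scale (edgeR adjusted p = 0.998), and without untreated replicate 2 and IL-4 replicate 1 it became 0.18 (edgeR adjusted p = 0.00876). Psmb8 and Psmb9, the other inducible catalytic subunits, were not called in any comparison, at means of 86.5 and 27.3 CPM untreated, 95.5 and 30.5 CPM with IL-4 and 83.3 and 30.9 CPM with IL-27. Without the same pair of libraries, Psmb9 was higher with IL-27 than untreated (edgeR adjusted p = 4.71e-05) and than with IL-4 (edgeR adjusted p = 0.00237).

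In the regulatory cap, 5 of 17 genes rose with IL-4, beside 12.9% of all genes tested, with a median log2 fold change of 0.28. With untreated replicate 2 and IL-4 replicate 1 left out, 15 of 17 rose, beside 24.0% of all genes. Psmd14, the lid subunit that cuts ubiquitin off the substrate, gave the smallest adjusted p of the 48 genes. It measured 47.7, 50.5 and 47.9 CPM untreated, 73.4, 78.7 and 74.4 CPM with IL-4 and 56.1, 56.0 and 56.1 CPM with IL-27. The 3 groups did not overlap each other. The rise with IL-4 was 1.55-fold (log2 0.63 ± 0.08, edgeR adjusted p = 0.000293). The difference between IL-27 and untreated was 0.20 ± 0.08 on the log2 scale and did not pass (edgeR adjusted p = 0.077), though DESeq2 (adjusted p = 0.0247) and the fit without untreated replicate 2 and IL-4 replicate 1 (log2 0.22, edgeR adjusted p = 0.00363) called it.

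Psmd12, a scaffold subunit of the lid, rose from 55.7, 46.0 and 49.4 CPM to 61.2, 72.8 and 65.9 CPM (log2 0.40 ± 0.10, edgeR adjusted p = 0.0158), a call lost without untreated replicate 3 or IL-4 replicate 2 (adjusted p up to 0.0607). The ATPases Psmc4 (log2 0.50 ± 0.14, edgeR adjusted p = 0.0282) and Psmc3 (log2 0.42 ± 0.13, edgeR adjusted p = 0.0419), which pull the substrate into the barrel, were called among 6 of the ring, whose median was 0.32. Psmc3 measured 103, 131 and 103 CPM untreated and 179, 137 and 136 CPM with IL-4, so its closest libraries were untreated replicate 2 and IL-4 replicate 3. Psmc4 lost its call without IL-4 replicate 1, IL-27 replicate 3 or untreated replicate 1 or 3 (adjusted p up to 0.104). Psmc3 lost it without IL-4 replicate 1, untreated replicate 1 or 3 or any IL-27 library (adjusted p up to 0.138), and shares 215 of 2607 exon bases with Slc39a13 on the opposite strand. Psmd1, the base scaffold, had the smallest rise of those called (log2 0.25 ± 0.08, edgeR adjusted p = 0.047), lost on leaving out any library other than IL-4 replicate 1 (adjusted p up to 0.158). It shares 301 of 7265 exon bases with Gm21972 and 252 with Htr2b. Psmd8, also of the lid, had a log2 value of -0.04 ± 0.13, the only cap gene fitted below 0.

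Of the 7 chaperones that build the core and the cap, only Psmg1 was called higher with IL-4, where 12.9% of all genes tested were higher. Psmg1, which pairs with Psmg2 to assemble the alpha ring, measured 6.89, 8.94 and 7.06 CPM untreated, 12.6, 11.9 and 12.9 CPM with IL-4 and 6.11, 8.50 and 8.34 CPM with IL-27. IL-4 libraries lay above all others, and the rise was 1.63-fold (log2 0.71 ± 0.16, edgeR adjusted p = 0.0107). Psmg2 did not pass with IL-4 (log2 0.39, edgeR adjusted p = 0.0781), although every IL-4 library lay above every untreated one. None of the 3 chaperones of the cap base, Psmd5, Psmd9 and Psmd10, passed, with a median log2 value of 0.12. No test of the difference between the chaperone groups was made.

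**Figure D3:**
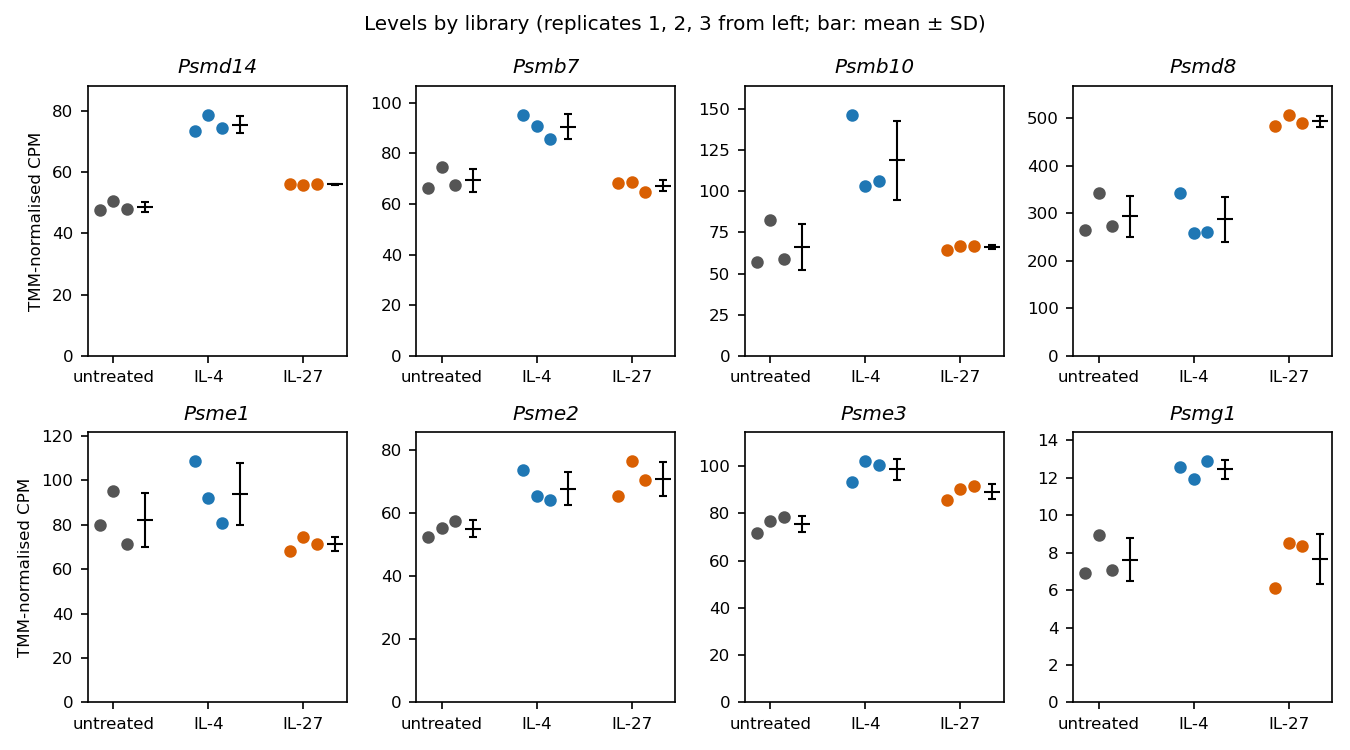
TMM-normalised CPM (vertical axes from 0) of 8 genes in each library, with replicates 1 to 3 from left to right in each group and the mean ± SD beside them. Psmd14, Psmb10 and Psmg1 are highest in the IL-4 libraries, Psmd8 is highest in the IL-27 libraries at 482 to 506 CPM, and Psme2 lies at 65.6 to 76.5 CPM with IL-27 and 52.5 to 57.7 CPM untreated.

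Of the activators, Psme2 and Psme3 were higher with IL-4, and Psme2 was also higher with IL-27. Psme3 forms a nuclear activator ring of its own and measured 71.8, 76.7 and 78.3 CPM untreated, 93.4, 101.9 and 100.4 CPM with IL-4 and 85.7, 90.3 and 91.4 CPM with IL-27. Both cytokine groups lay wholly above the untreated group. The rise with IL-4 was 1.30-fold (log2 0.38 ± 0.08, edgeR adjusted p = 0.00666), and the value with IL-27 was log2 0.24 ± 0.08, just outside the threshold (edgeR adjusted p = 0.0501). DESeq2 called Psme3 higher with IL-27 (adjusted p = 0.0153), as did edgeR without untreated replicate 2 and IL-4 replicate 1 (adjusted p = 0.000784).

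Psme2 measured 52.5, 55.3 and 57.7 CPM untreated, 73.8, 65.4 and 64.2 CPM with IL-4 and 65.6, 76.5 and 70.5 CPM with IL-27. No untreated library reached any treated library, while the IL-4 and IL-27 values overlapped. The rise was 1.28-fold with IL-27 (log2 0.36 ± 0.10, edgeR adjusted p = 0.0181) and 1.23-fold with IL-4 (log2 0.30 ± 0.10, edgeR adjusted p = 0.0476). The IL-27 call was lost without untreated replicate 1 or IL-27 replicate 2 or 3 (adjusted p up to 0.086), and the IL-4 call was lost on leaving out any of the 9 libraries (adjusted p from 0.0631 to 0.15). The near-identical copy Psme2b may share reads with Psme2, and both levels are uncertain for that reason. Psme2b measured 24.7, 18.7 and 26.6 CPM untreated, 17.3, 21.6 and 24.7 CPM with IL-4 and 28.8, 29.5 and 29.3 CPM with IL-27.

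Psme1, the ring partner of Psme2 and its neighbour on chromosome 14 with 1 protein-coding gene between them, did not pass against untreated with either cytokine. It measured 80.0, 95.1 and 71.2 CPM untreated, 108.4, 92.0 and 80.6 CPM with IL-4 and 68.4, 74.4 and 71.2 CPM with IL-27. The log2 values were 0.19 ± 0.13 with IL-4 (edgeR adjusted p = 0.338) and -0.20 ± 0.13 with IL-27 (edgeR adjusted p = 0.286), with overlapping groups. The difference between Psme1 and Psme2 in their response was not tested. Psme4, a large nuclear activator, varied between replicates more than between groups, from 67.3 to 96.7 CPM untreated, from 67.1 to 108.9 CPM with IL-4 and from 79.5 to 90.7 CPM with IL-27 (log2 0.10 ± 0.19 and -0.01 ± 0.19, edgeR adjusted p = 0.744 and 0.985). Its lowest values were those of untreated replicate 2 and IL-4 replicate 1. Psmf1, the inhibitor that binds the core, stayed between 29.4 and 35.9 CPM in all libraries, with log2 values of 0.08 and 0.09 for IL-4 and IL-27 (edgeR adjusted p = 0.617 and 0.504).

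With IL-27, few proteasome genes differed from untreated, and a single lid subunit made the clearest change. Of the 48 genes, 2 were higher (4.17%, beside 14.0% of all genes tested) and 0 were lower (15.1% of all genes) by edgeR adjusted p under 0.05. At an unadjusted p under 0.05 there were 6 higher and 1 lower, and DESeq2 called 5 higher and 0 lower (16.8% and 18.4% of all genes). The log2 fold change was above 0 in 24 genes and below 0 in 24 (50.1% and 49.9% of all genes), with a median of 0.00, the same as over all genes. The medians were -0.04 for the rings, -0.01 for the cap and 0.24 for the activators. Psmg4 had the lowest value of the 48 genes and did not pass (log2 -0.40 ± 0.32, edgeR adjusted p = 0.378), although every IL-27 library lay below every untreated one. In 9 genes every IL-27 library lay above every untreated library (26.2% of all genes) and in 4 below (26.0%). In the fit without untreated replicate 2 and IL-4 replicate 1, 13 genes were higher and 7 lower, beside 24.2% and 25.3% of all genes. The count of genes higher was 1 without untreated replicate 1 or IL-27 replicate 2 or 3 and 5 without IL-4 replicate 1, which also gave 1 lower. This comparison shares its untreated libraries with the IL-4 comparison.

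Psmd8 measured 265, 343 and 273 CPM untreated, 342, 258 and 259.6 CPM with IL-4 and 482, 506 and 489 CPM with IL-27. Every IL-27 library lay far above the other 6, in which the highest values were those of untreated replicate 2 and IL-4 replicate 1. The rise was 1.68-fold against untreated (log2 0.75 ± 0.13, edgeR adjusted p = 0.00236) and 1.72-fold against IL-4 (log2 0.78 ± 0.13, edgeR adjusted p = 0.00116). Leaving out each library kept the adjusted p at or below 0.013 against untreated, and without untreated replicate 2 and IL-4 replicate 1 the log2 value was 0.87 (edgeR adjusted p = 6.78e-15). The other lid genes gave IL-27 values against untreated from -0.25 for Psmd3 to 0.30 for Psmd6, with no calls. Counted without Psmd8, the cap took 0.139%, 0.141% and 0.137% of counts in untreated and 0.134%, 0.134% and 0.134% in IL-27 libraries, while with Psmd8 it took 0.167%, 0.173% and 0.166% against 0.182%, 0.183% and 0.183%. The summed cap thus lay above untreated with Psmd8 and below untreated without it.

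Once untreated replicate 2 and IL-4 replicate 1 were left out, the 13 genes higher with IL-27 (27.1%, beside 24.2% of all genes) and the 7 lower (14.6%, beside 25.3%) included ring genes in both directions, 3 higher and 3 lower. Among the catalytic subunits, Psmb6 (log2 0.30, edgeR adjusted p = 6.82e-06) and Psmb5 (log2 0.19, edgeR adjusted p = 0.00901) were then higher than untreated. The ring genes Psma1 (log2 -0.20, edgeR adjusted p = 0.00478), Psmb2 (log2 -0.20, edgeR adjusted p = 0.0117) and Psmb1 (log2 -0.16, edgeR adjusted p = 0.0204) were then lower, as were Psmc1, Psmc3, Psmd5 and Psme4 (log2 -0.16, -0.14, -0.32 and -0.16, edgeR adjusted p = 0.0135, 0.0209, 0.00168 and 0.0296). With all libraries, these log2 values were 0.14 ± 0.16 for Psmb6 and 0.02 ± 0.17 for Psmb5, and Psmb7 stood at -0.05 ± 0.09 (edgeR adjusted p = 0.545, 0.948 and 0.719). Psmb6 measured 150.4, 152 and 144.7 CPM and Psmb5 100.1, 102.6 and 99.3 CPM with IL-27, inside the untreated range that untreated replicate 2 extends upwards.

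Set directly against IL-4, IL-27 cells held less proteasome RNA in the rings, the ATPases and Psmb10, and more of Psmd8. Of the 48 genes, 22 were lower with IL-27 than with IL-4 (45.8%, beside 21.0% of all genes tested) and 2, Psmd8 and Psme2b, were higher (18.8% of all genes) by edgeR adjusted p under 0.05. DESeq2 called 25 lower and 2 higher (23.4% and 21.2% of all genes). The median log2 difference was -0.32, beside 0.01 over all genes, and it was below 0 in 40 of 48 genes and above 0 in 8 (49.5% and 50.5% of all genes). In 31 genes every IL-27 library lay below every IL-4 library (28.7% of all genes) and in 2 above (28.0%). Of the 14 genes higher with IL-4 than untreated, 10 were among the 22, a count that shares the IL-4 libraries between both comparisons. With untreated replicate 2 and IL-4 replicate 1 left out, 32 were lower and 2 higher (30.3% and 27.9% of all genes). Leaving out single libraries gave between 8 and 26 lower, with 8 without IL-27 replicate 1 and 10 without IL-27 replicate 2 or replicate 3.

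Within the rings, 10 of 14 genes were lower with IL-27 than with IL-4, beside 21.0% of all genes tested. The median log2 difference of the rings was -0.36. In 13 of 14 every IL-27 library lay below every IL-4 library, beside 28.7% of all genes. Leaving out untreated replicate 2 and IL-4 replicate 1, 13 of 14 were lower, beside 30.3% of all genes. Psmb2, a structural subunit of the beta ring, had the lowest log2 difference of the ring genes. It measured 52.4, 64.7 and 53.4 CPM untreated, 80.6, 66.9 and 63.7 CPM with IL-4 and 47.4, 46.6 and 45.0 CPM with IL-27. IL-27 libraries lay below all others, and the log2 difference from IL-4 was -0.60 ± 0.12 (edgeR adjusted p = 0.00259). Psmb7 was 1.35-fold lower (log2 -0.43 ± 0.09, edgeR adjusted p = 0.00291), and Psmb1 was lower by log2 -0.34 ± 0.08 (edgeR adjusted p = 0.00778). In the alpha ring, Psma7 had the smallest adjusted p (log2 -0.39 ± 0.10, edgeR adjusted p = 0.0121), followed by Psma5 (log2 -0.46, edgeR adjusted p = 0.0165), whose call was lost without IL-27 replicate 1 (adjusted p = 0.0694), and Psma6 (log2 -0.30, edgeR adjusted p = 0.0208), whose call was lost without any IL-27 library or IL-4 replicate 2 (adjusted p up to 0.089). Psmb5 was lower (log2 -0.48 ± 0.17, edgeR adjusted p = 0.0441), with an adjusted p of up to 0.124 and the call ended by leaving out any IL-27 library, IL-4 replicate 1 or 3 or untreated replicate 1. Psmb6 did not pass (log2 -0.21 ± 0.16, edgeR adjusted p = 0.327). Psma5 and Psmb5 share 60 of 1321 and 109 of 899 exon bases with other annotated genes. Psmb10 was 1.80-fold lower than with IL-4 (log2 -0.85 ± 0.17, edgeR adjusted p = 0.00275), the lowest log2 difference of the 48.

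In the cap, 5 of 6 ATPases were lower with IL-27 than with IL-4, beside 21.0% of all genes tested. Psmd1, Psmd3 and Psmd14 were also lower, while Psmd8 was higher. Psmc3 measured 95.3, 94.4 and 91.6 CPM with IL-27, below every untreated and IL-4 library, and was 1.61-fold lower than with IL-4 (log2 -0.68 ± 0.13, edgeR adjusted p = 0.0025). Its difference from untreated was -0.26 ± 0.13 on the log2 scale (edgeR adjusted p = 0.172). Psmc4 (log2 -0.51, edgeR adjusted p = 0.0168) lost its call without IL-27 replicate 1 or 2 (adjusted p up to 0.0596), and Psmc1 (log2 -0.33, edgeR adjusted p = 0.0221) without any IL-27 library or IL-4 replicate 2 or 3 (adjusted p up to 0.071). Psmc6, the ATPase not called lower, measured 66.0, 61.9 and 60.0 CPM with IL-27 against 52.5, 36.7 and 53.1 CPM untreated and 45.8, 68.6 and 58.6 CPM with IL-4, with no call in any comparison. Psmd14 was 1.35-fold lower with IL-27 than with IL-4 (log2 -0.43 ± 0.08, edgeR adjusted p = 0.00157). Psmd3 (log2 -0.54, edgeR adjusted p = 0.0257) lost its call without any IL-27 library or IL-4 replicate 1 (adjusted p up to 0.0896), and Psmd1 (log2 -0.23, edgeR adjusted p = 0.0411) lost it without any library but untreated replicate 2 and IL-4 replicate 1 (adjusted p up to 0.135).

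Among the core chaperones, Psmg1 (log2 -0.70 ± 0.16, edgeR adjusted p = 0.00671) and Psmg2 (log2 -0.54 ± 0.15, edgeR adjusted p = 0.0146) were lower with IL-27 than with IL-4, and Psmg2 lost its call without IL-27 replicate 1 or 3 or IL-4 replicate 2 (adjusted p up to 0.0609). Of the activators, Psme1 was 1.31-fold lower (log2 -0.39 ± 0.13, edgeR adjusted p = 0.0394) and Psme2b 1.38-fold higher (log2 0.46 ± 0.16, edgeR adjusted p = 0.0405). Both calls were lost without IL-4 replicate 1 or 2, untreated replicate 1 or any IL-27 library (adjusted p up to 0.123 and 0.101). Psme2b shares 41 of its 837 exon bases with 9930111J21Rik1 on the same strand, and Psme1 14 of 2209 with Emc9 on the opposite strand. The values for Psme2 (log2 0.06 ± 0.10), Psme3 (-0.14 ± 0.08), Psme4 (-0.11 ± 0.19) and Psmf1 (0.02 ± 0.10) did not pass (edgeR adjusted p = 0.626, 0.182, 0.682 and 0.904). Without untreated replicate 2 and IL-4 replicate 1, Psme3 and Psme4 were also lower (log2 -0.19 and -0.30, edgeR adjusted p = 0.00445 and 0.000114).

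Levels of different genes were compared in the deposited FPKM, which divide by gene length. The subunits of a ring enter the complex in equal number, yet their RNA levels differed. In untreated cells the beta ring ran from 122 FPKM for Psmb4 to 65.2 for Psmb7, and the alpha ring from 80.4 for Psma2 to 27.6 for Psma3. This order depends on the gene lengths used, which were 946 bases for Psma2 and 1956 for Psma3. In TMM-normalised CPM, Psma3 (untreated mean 54.1) lay above Psma5 (47.0), which FPKM placed higher. The median of the 14 ring genes was 68.3, 66.8 and 69.9 FPKM in the untreated libraries and that of the cap was 43.7, 46.3 and 46.9 FPKM. These medians were 87.6, 94.7 and 87.4 FPKM for the rings and 60.1, 59.4 and 55.7 FPKM for the cap with IL-4, and 65.7, 64.1 and 62.5 FPKM and 45.2, 43.9 and 45.6 FPKM with IL-27. The rings thus lay above the cap in every library.

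The cap held the widest spread. Its lid ran from Psmd8 at a mean of 192 ± 14.1 FPKM (SD, n = 3) to Psmd11 at 16.2 FPKM in untreated cells, an 11.9-fold range that became 18.0-fold with IL-27, when Psmd8 reached 320 ± 5.32 FPKM (SD, n = 3), the highest level among the 48 genes. The ATPases ran from Psmc3 at 68.0 FPKM to Psmc6 at 27.5 FPKM and the base from Psmd2 at 83.2 FPKM to Psmd1 at 40.1 FPKM. The activators ran from Psme1 at 83.2 ± 7.35 FPKM to Psme4 at 11.3 ± 2.79 FPKM (SD, n = 3). Chaperones were lower, at 21.3 (Psmg4) to 7.23 FPKM (Psmg1) for the core and 14.4 (Psmd10) to 11.2 FPKM (Psmd9) for the cap, and the inhibitor Psmf1 stood at 8.59 FPKM. Psmb10 rose in level from 51.3 FPKM untreated to 95.1 FPKM with IL-4, which brought it among the standard beta subunits, and it stood at 51.0 FPKM with IL-27. Psma8, an alpha subunit of the germ line, was at 0.771 FPKM, and Psmc3ip, a meiotic recombination protein named for its binding to Psmc3, at 1.11 FPKM untreated. Neither passed in any comparison, nor did Psme3ip1, named for its binding to Psme3.

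**Figure D4:**
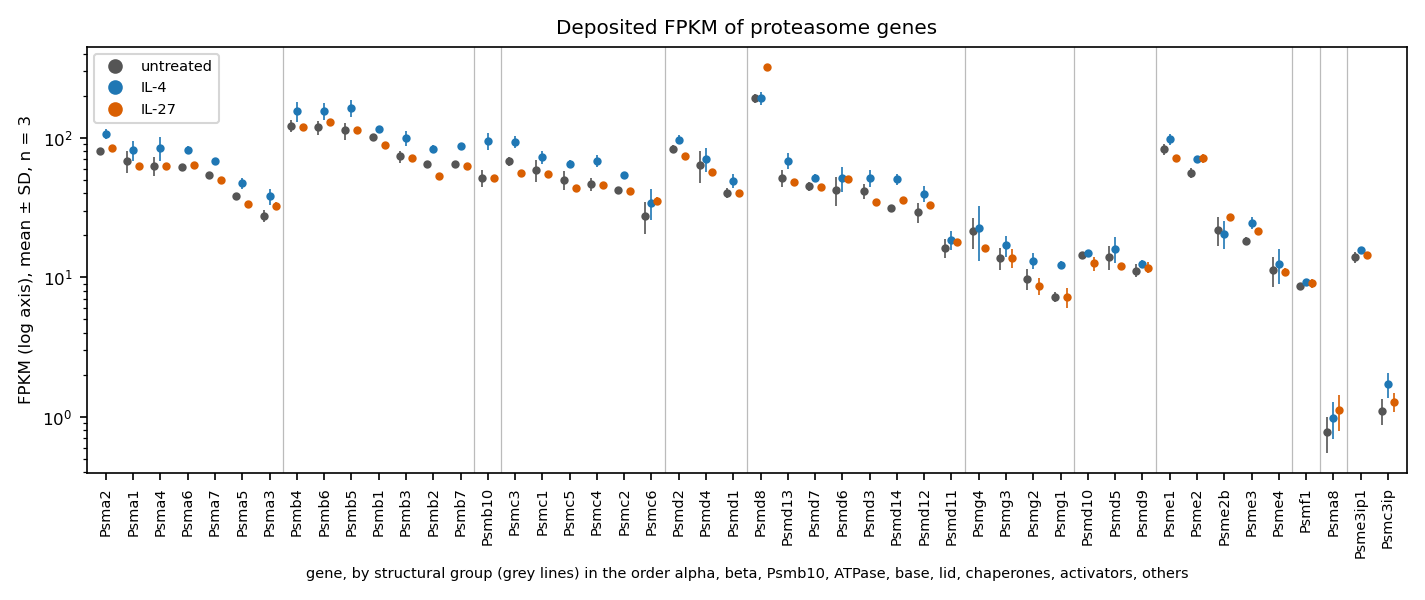
Deposited FPKM (log axis, mean ± SD, n = 3) of the 48 genes in each of the 3 groups, ordered by structural group and, within it, by the untreated level. Psmd8 stands above the rest of the cap at 192 FPKM untreated and 320 with IL-27, and chaperones, Psme4 and Psmf1 lie below most ring genes.

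Of the cofactors outside the name pattern, 9 of 10 were tested. With IL-4, 2 rose and 0 fell, where 12.9% of all genes tested were higher and 12.0% lower. Pomp, which matures the core, rose 1.31-fold (log2 0.39 ± 0.09, edgeR adjusted p = 0.00929), and Usp14, a deubiquitinase on the cap, rose 1.65-fold (log2 0.72 ± 0.21, edgeR adjusted p = 0.0279), a call lost without untreated replicate 2 or 3 or IL-4 replicate 2 or 3 (adjusted p up to 0.1). With IL-27, 0 of the 9 were called by edgeR against untreated, where 14.0% of all genes were higher and 15.1% lower (1 of the 9 higher and 1 lower at an unadjusted p under 0.05, and 0 higher and 1 lower by DESeq2). Against IL-4, 2 were lower and 0 higher (21.0% and 18.8% of all genes). Pomp was 1.55-fold lower with IL-27 (log2 -0.63 ± 0.09, edgeR adjusted p = 0.000287), and Akirin2, which brings proteasomes into the nucleus, was lower (log2 -0.24, edgeR adjusted p = 0.0427), a call kept only without untreated replicate 2 or IL-4 replicate 1 among the single left-out libraries (adjusted p up to 0.14). Without untreated replicate 2 and IL-4 replicate 1 together, 7 of the 9 rose with IL-4 (24.0% of all genes did), 2 were higher and 1 lower with IL-27 than untreated (24.2% and 25.3%), and 7 were lower and 1 higher with IL-27 than with IL-4 (30.3% and 27.9%). The gene that was higher is Adrm1, a ubiquitin receptor of the cap (log2 0.23, edgeR adjusted p = 0.00119), which was also higher than untreated in that fit (log2 0.32, edgeR adjusted p = 6.37e-05).

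Of 16 genes that supply ubiquitin, unfold substrates or carry them to the proteasome, 2 rose and 1 fell with IL-4, beside 12.9% and 12.0% of all genes. Rad23b, a shuttle factor for ubiquitin-tagged proteins, rose (log2 0.40 ± 0.09, edgeR adjusted p = 0.00935), and Zfand2a, a stress-induced proteasome-binding protein, fell (log2 -0.48 ± 0.09, edgeR adjusted p = 0.0039). With IL-27 against untreated, 4 rose and 2 fell, beside 14.0% and 15.1% of all genes. Zfand2a rose 1.44-fold (log2 0.53 ± 0.09, edgeR adjusted p = 0.00192) and Rad23b 1.32-fold (log2 0.40 ± 0.09, edgeR adjusted p = 0.00801), and the unfoldase Vcp fell (log2 -0.33, edgeR adjusted p = 0.0263), and this call did not survive leaving out untreated replicate 1 or 2 or any IL-27 library (adjusted p up to 0.0957). Zfand2a thus moved in opposite directions with the 2 cytokines, and against IL-4 it was 2.01-fold higher with IL-27 (log2 1.01 ± 0.09, edgeR adjusted p = 1.72e-05), where 1 of the 16 was higher and 4 were lower (18.8% and 21.0% of all genes). Vcp (log2 -0.51 ± 0.09, edgeR adjusted p = 0.0018) was among the lower. Leaving out untreated replicate 2 and IL-4 replicate 1 gave 8 higher and 3 lower with IL-4 (24.0% and 22.3% of all genes), 4 higher and 5 lower with IL-27 than untreated (24.2% and 25.3%), and 5 higher and 6 lower with IL-27 than with IL-4 (27.9% and 30.3%).

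Among 6 transcription factors linked to proteasome genes and proteins that activate them, 0 rose and 3 fell with IL-4, beside 12.9% and 12.0% of all genes. Counts were also 0 higher and 3 lower by DESeq2 (15.5% and 15.0% of all genes), at an unadjusted p under 0.05, and by edgeR without untreated replicate 2 and IL-4 replicate 1 (24.0% and 22.3%). Nfe2l2, the antioxidant regulator, fell from a mean of 380.9 ± 15.9 to 232 ± 21.0 CPM (SD, n = 3, log2 -0.71 ± 0.09, edgeR adjusted p = 0.000258). Foxo4 fell (log2 -0.83, edgeR adjusted p = 0.000342), as did Stat3 (log2 -0.49, edgeR adjusted p = 0.0221), a call lost without untreated replicate 3 or IL-4 replicate 2 or 3 (adjusted p up to 0.0797). With IL-27, 2 rose and 0 fell, beside 14.0% and 15.1% of all genes, a count that DESeq2 and an unadjusted p under 0.05 also gave. The fit without that pair of libraries gave 2 higher and 2 lower, beside 24.2% and 25.3%. Nfe2l1, which induces proteasome genes when proteasome activity is short, rose from 245 ± 22.7 to 361 ± 6.35 CPM (SD, n = 3, log2 0.56 ± 0.11, edgeR adjusted p = 0.00324), and its value with IL-4 was log2 0.05 ± 0.11 (edgeR adjusted p = 0.759). Stat3 rose with IL-27 (log2 0.39, edgeR adjusted p = 0.0495), a call lost without untreated replicate 1 or 3, any IL-27 library or IL-4 replicate 3 (adjusted p up to 0.156). Against IL-4, Nfe2l1, Nfe2l2, Stat3 and Foxo4 were all higher with IL-27, 4 of 6 genes beside 18.8% of all genes, and 4 of 6 beside 27.9% without the same pair.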

How the data were processed

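PolyA RNA of the 9 libraries was deposited by the authors as whole-number counts per gene and as FPKM. The submitters' processing notes name the tools fastp, HISAT2 and HTSeq, with no versions, and the build GRCm39. Annotation, strand setting and the handling of ambiguous reads were not stated. The deposited FPKM are the same counts divided by gene length and library total (lengths were whole within 1e-06 bases for 100% of genes).

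Counts were fitted in R 4.3.3 with edgeR 4.0.16 (quasi-likelihood, TMM factors of 0.918 to 1.06, filterByExpr with a minimum count of 10, 9 libraries in 1 fit with a term for group). A gene was called at a Benjamini-Hochberg adjusted p under 0.05 over all 12587 genes tested. The common dispersion was 0.0272. SEs were derived from the log2 fold change and the F statistic and are approximate. DESeq2 1.42.0, other scalings, other filters, a replicate block and left-out libraries were alternatives. Totals of 34577188 to 37951827 counts limit counting error only.

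Genes and lists were chosen with earlier results of these data known. Named genes were the catalytic subunits, the activators, Psmf1 and Psmd14 in every comparison, up to 3 genes with the smallest adjusted p in each structural group, the extremes of fold change and the extremes of FPKM, with up to 3 genes per comparison in the other lists. Further genes were added after their values were seen, among them Psmb8 and Psmb9 without 2 libraries, Psma1, Psmb1, Psmb2, Psmc1, Psmd5, Adrm1, Psmd6 and Psmc6. Promoters and exon overlaps were taken from RefSeq (GRCm38.p6) and GENCODE M21, another build than that of the counts, and no coordinate was converted. A planned alignment of protein sequences was not run, and the replicate numbers were not found to pair the libraries. A result of the ubiquitin supply list is not reported here.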

Additional observations from a re-analysis of the deposited data

How the results depend on the processing

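With DESeq2 size factors or upper-quartile factors in edgeR, with either filter on low counts and in the DESeq2 test, all counts of called genes stayed within 1.5 times the main count, except that DESeq2 called 5 genes higher with IL-27 than untreated in place of 2. With only the 2 groups in the fit, 8 genes were higher with IL-4 than untreated in place of 14. Over single left-out libraries, the count was 7 to 20 higher with IL-4, 1 to 5 higher and 0 to 1 lower with IL-27 than untreated, and 1 to 2 higher and 8 to 26 lower with IL-27 than with IL-4. Without untreated replicate 2 and IL-4 replicate 1 together, 35 were higher with IL-4, 13 were higher and 7 lower with IL-27 than untreated, and 32 were lower with IL-27 than with IL-4. In that fit the value of Psmb10 with IL-27 turned from -0.0008, close to 0, to 0.18 (log2). This was the only change of sign among the named genes with an adjusted p under 0.05 in either fit. Psmb7 with IL-27 also changed sign, from -0.047 to 0.003 (log2), and passed in neither (edgeR adjusted p = 0.719 and 0.973). Over single left-out libraries, the value of Psmb10 ran from -0.095 without untreated replicate 1 to 0.18 without untreated replicate 2. The cause of these shifts was not tested. Of the values of named genes over single left-out libraries, 413 stayed on their side of the threshold, 78 lost a call and 4 gained one.

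The replicate numbers in the labels did not pair the libraries, with correlations of same-numbered deviations between -0.80 and 0.67. With a replicate block, 8 genes were higher with IL-4 than untreated, 1 was higher with IL-27 than untreated, and 1 was higher and 12 were lower with IL-27 than with IL-4. The block ended 12 calls of named genes. No share of all genes called was computed for the block, for the fit of only the 2 groups or for single left-out libraries. It therefore cannot be told from these counts whether a loss of calls was particular to the proteasome genes. The ratio of the median ring level to the median cap level in untreated cells was 1.03 in CPM, which are not divided by length, and higher in FPKM. With 3 libraries a group, changes near 1.2-fold could lie close to the threshold or far from it. Psme3 with IL-27 (1.18-fold) had an edgeR adjusted p of 0.0501, and Psmd3 with IL-4 (1.22-fold) had 0.244.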
